A study of Mus musculus with 9 samples.

Results

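The set described here comprises 7 chains of the common gamma chain cytokine receptors, without the IL-4 receptor chain Il4ra, and the 2 Janus kinases bound to them. They were taken by symbol from the deposited table, where they are listed as IL2RG, IL2RB, IL2RA, IL15RA, IL7R, IL21R, IL9R, JAK1 and JAK3. These 9 genes are among 23415 symbols in that table, and all of them were found. Transcripts were measured in CD4+ T cells from the colon lamina propria of Rag1-/- mice, which lack T and B cells of their own and keep their innate cells, at the height of colitis induced by transferred T cells. The transferred cells were naive, CD25-negative and CD45RBhigh, and came from CD160 knockout donors (4 libraries) or wildtype littermates (5 libraries, called controls). CD160, a surface receptor found on lymphocytes, has HVEM as its ligand. The labels used here give no age or sex, and no link between libraries and recipients, so p-values measure the spread between libraries, which may be technical. Values are TPM, a transcript abundance that the authors corrected for length and for the library's total. TPM keeps no depth, so the counting error of each value is unknown.

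The common gamma chain, encoded by Il2rg, is the subunit shared by the receptors for IL-2, IL-4, IL-7, IL-9, IL-15 and IL-21. Each cytokine is recognised by a partner chain of its own or shared with another cytokine, and the cytoplasmic tails recruit the kinases JAK1 and JAK3, which phosphorylate STAT factors. In T cells these receptors carry signals for survival, growth and memory, and the high-affinity IL-2 receptor is also a hallmark of regulatory T cells.

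Control replicate 1 stood apart from the other 8 libraries. It had 7308 genes at 1 TPM or more, against 11088 to 11711 in the others, and every one of the 9 receptor and kinase genes was at its lowest there. Results on the 9 genes are therefore given with all 9 libraries and without this one, and those on other genes of the pathway mainly without it. Transcripts of the T cell markers Cd3d, Cd3e, Cd3g and Cd4 were present in all libraries, and the 6 markers of B and plasma cells summed to 2.45 to 12.9 TPM in knockouts and 1.63 to 8.07 TPM in control replicates 2 to 5, with 2 of the 6, Ms4a1 and Mzb1, listed at 0 in every library. Cd160 itself was lower in every knockout library, at 5.44 to 18.8 TPM, than in any control library, at 31.8 to 212 TPM.

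The 9 genes lie on 7 chromosomes in the annotation of GRCm38, the build named by the submitters. Il2ra (chromosome 2, 11642807 to 11693193) and Il15ra (chromosome 2, 11705290 to 11734317) encode the alpha chains of the IL-2 and IL-15 receptors and are separated by 12096 bases on the same strand. Il7r (9505788 to 9530176) and Il2rb (78479256 to 78495271) are both on chromosome 15. Il2rg is on chromosome X (101264378 to 101268255), Il21r on chromosome 7 (125603429 to 125633570), Il9r on chromosome 11 (32187541 to 32200279), Jak1 on chromosome 4 (101152367 to 101265282) and Jak3 on chromosome 8 (71676296 to 71690575).

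Promoter windows of 300 bases, from 250 before to 50 after the start site in RefSeq's GRCm38.p6 table, were available for 8 of the 9 genes, with 2 windows for Il15ra. Il2rb had no window and was not searched. The windows were searched on both strands for TTCNNNGAA, the palindromic letters of a STAT site, and for CGGAAG, a form of ETS family site. Other forms, such as AGGAAG, were not searched, so a window without a match may still hold such a site. TTCNNNGAA was found in 8.30% and CGGAAG in 16.9% of all 32851 windows in the table. TTCNNNGAA was found in the Il7r window alone among the 8 genes searched, beginning 142 bases before the start site. CGGAAG was found once each for Il2rg, Jak1 and Il15ra, beginning 16, 205 and 103 bases before the start site. For Il15ra the match was in the upstream window only. Below are the windows of the receptor gene with the highest level and of the receptor gene with the STAT letters, 5′ to 3′ on the gene's strand, with the matches in capitals.
Il2rg, minus strand, chrX:101268206-101268505: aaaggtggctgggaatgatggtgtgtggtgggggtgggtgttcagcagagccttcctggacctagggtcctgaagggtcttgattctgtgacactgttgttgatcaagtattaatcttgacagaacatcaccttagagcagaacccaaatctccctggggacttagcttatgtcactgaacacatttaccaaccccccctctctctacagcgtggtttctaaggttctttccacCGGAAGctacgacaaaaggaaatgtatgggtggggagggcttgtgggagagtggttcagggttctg
Il7r, minus strand, chr15:9529827-9530126: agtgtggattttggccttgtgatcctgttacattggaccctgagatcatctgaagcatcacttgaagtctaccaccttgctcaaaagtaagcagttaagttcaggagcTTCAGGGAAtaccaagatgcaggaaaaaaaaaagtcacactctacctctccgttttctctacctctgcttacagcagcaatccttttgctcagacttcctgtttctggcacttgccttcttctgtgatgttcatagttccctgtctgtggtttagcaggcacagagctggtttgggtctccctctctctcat
These matches are descriptions of letters and do not show that a factor binds.

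The common gamma chain was by far the most abundant of the 9 transcripts. Over the 8 libraries without control replicate 1, Il2rg had a median of 961 TPM and stood at the 98.6th percentile of the 11457 genes tested. The IL-2 and IL-15 receptor beta chain Il2rb followed with a median of 249.8 TPM, and it was below Il2rg in every library. The IL-21 receptor gene Il21r, the IL-7 receptor alpha gene Il7r, Jak3 and Jak1 came next at medians of 168, 146, 142 and 124 TPM. Their ranges overlapped, so the order within this group of 4 does not exceed the spread between libraries: Il21r was above Il7r in 5 of 8 libraries, Il7r above Jak3 in 5 and Jak3 above Jak1 in 6. Il2rb was above Il21r in 8 of 8 libraries, although the ranges of the pair overlapped. Far lower were the alpha chains Il15ra and Il2ra, at medians of 21.7 and 8.14 TPM, and the IL-9 receptor gene Il9r at 3.97 TPM. The ranges of these 3 genes overlapped neither each other nor the group above.

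**Figure D1:**
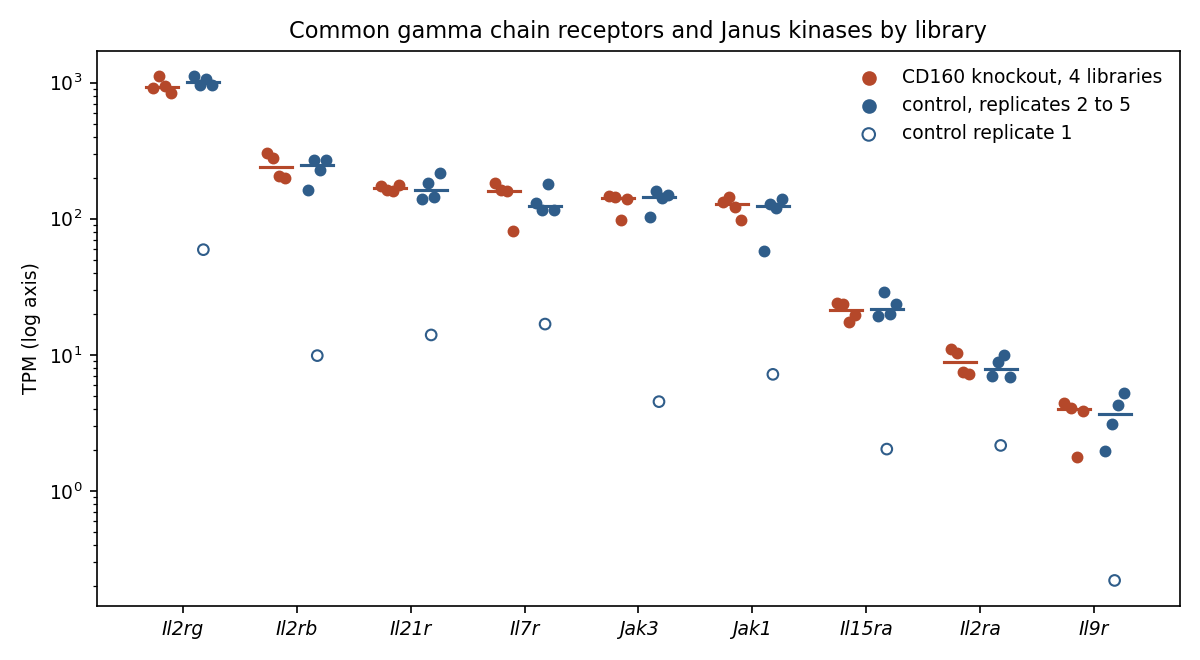
TPM of each gene on a log axis, in order of the median over 8 libraries, with 1 point per library and a line at the median of the 4 knockout libraries and of control replicates 2 to 5. Il2rg lies between 846 and 1119 TPM, a group of 5 genes between 57.9 and 305 TPM, and Il15ra, Il2ra and Il9r at or below 28.8 TPM, while control replicate 1 (open circles) lies below all other points of every gene.

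None of the 9 genes was called as different between knockout and control cells. All 9 passed the filter of 1 TPM in at least 4 libraries. In limma on log2(TPM + 1) with adjustment over all genes, 0 of 9 were called with all 9 libraries, where 0.0174% of 11495 tested genes were called, and 0 of 9 without control replicate 1, where 0.0262% were. At an unadjusted p under 0.05 the count was 0 of 9 in both fits, against 6.39% and 12.8% of tested genes. The knockout and control values overlapped for all 9 genes in both comparisons, whereas the groups did not overlap for 4.93% and 7.02% of tested genes. Cd160, the deleted gene, was itself not called in either of these limma fits. Its log2 difference, knockout minus control, was -2.79 with all 9 libraries (adjusted p 0.57) and -3.11 without control replicate 1 (adjusted p 0.11). A gene that is not called may therefore still differ.

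The sign of the differences depended on control replicate 1. With all 9 libraries all 9 log2 differences, knockout minus control, were positive, from 0.35 for Il9r to 0.96 for Il2rb, with a median of 0.70 beside 0.46 for all tested genes. Without that library 4 were positive and 5 negative, from -0.11 for Il2rg to 0.22 for Jak1, and the median was -0.0015 beside -0.014 for all tested genes. The median standard error of the 9 genes fell from 0.71 to 0.19.

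**Figure D2:**
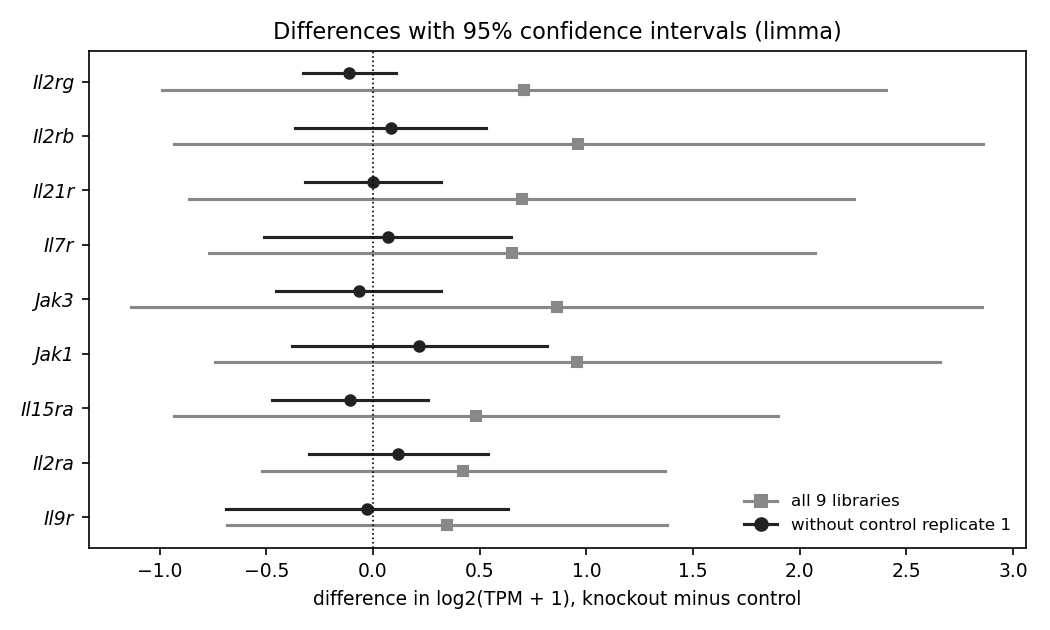
Difference in log2(TPM + 1), knockout minus control, with its 95% confidence interval from limma for each gene, for all 9 libraries (grey squares) and for the 8 without control replicate 1 (black circles). All intervals include 0, and those of the 8 libraries are narrower, for Il2rg -0.33 to 0.11 against -0.99 to 2.41.

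Il2rg, the shared signalling subunit, had the narrowest interval of the 9 genes without control replicate 1. Levels in the knockout group, given here and below in replicate order, were 914, 1117, 943 and 846 TPM. Levels in the 5 controls, again in order from replicate 1, were 59.3, 1119, 967, 1071 and 954 TPM. Apart from control replicate 1, all libraries lay between 846 and 1119 TPM and the groups overlapped. Knockouts averaged 955 ± 115 TPM and control replicates 2 to 5 averaged 1028 ± 80.4 TPM (SD, n = 4 each). In the 8 other libraries limma estimated a log2 difference of -0.11 (standard error, SE, 0.097; adjusted p 0.70), and its 95% interval corresponds to 0.80 to 1.08 times the control level. The estimate from all 9 libraries was 0.71 (SE 0.77), with an adjusted p of 0.74 that was the same for each of the 9 genes in that fit.

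Il2rb, which pairs with the common gamma chain to form the signalling receptor for IL-2 and IL-15, varied as much within as between groups. Levels were 305, 278, 205 and 199 TPM in the knockout libraries. The controls had 9.87, 163, 271, 228 and 271 TPM. The knockout values fell into a higher and a lower pair, and control replicates 3 to 5 lay between these pairs. Its log2 difference in limma was 0.083 (SE 0.20, adjusted p 0.92) without control replicate 1, and 0.96 (SE 0.86) with it.

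Il2ra encodes CD25, the alpha chain that raises the affinity of the IL-2 receptor and that activated and regulatory T cells display. The transferred cells had been sorted as CD25-negative, and in the colon the knockout libraries had 10.95, 10.3, 7.45 and 7.28 TPM. The controls had 2.16, 6.95, 8.84, 10 and 6.88 TPM. All 8 libraries other than control replicate 1 thus lay between 6.88 and 10.95 TPM, with control replicates 3 and 4 inside the knockout range and control replicates 2 and 5 just below it. In limma the difference came to 0.12 on the log2 scale (SE 0.19, adjusted p 0.86) without control replicate 1, and to 0.42 (SE 0.43) with it.

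Foxp3, the transcription factor that defines regulatory T cells, was at a level close to that of Il2ra. Foxp3 had 11.1, 13.2, 14.1 and 5.59 TPM in knockouts and 0.86, 12.8, 12.7, 8.20 and 9.26 TPM in controls. The log2 ratio of Il2ra to Foxp3 ran from -0.84 to 0.33 in knockouts and from -0.80 to 0.26 in control replicates 2 to 5. The 6 regulatory T cell markers summed to 321 to 435 TPM in knockouts and 301 to 467 TPM in those controls. Most of this sum was Tnfrsf18, which alone had 186 to 325 TPM over the 8 libraries, so the sum does not give the level of regulatory T cells.

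Il15ra encodes the chain that binds IL-15 and presents it to neighbouring cells, and myeloid cells express it as well as T cells. Its level was 24.0, 23.4, 17.4 and 19.6 TPM in the knockout group, and 2.03, 19.3, 28.8, 19.9 and 23.7 TPM in the control group. The groups overlapped, with the highest value in control replicate 3 and, among the 8 libraries, the lowest in knockout replicate 3. On the log2 scale limma put the difference at -0.11 (SE 0.16, adjusted p 0.85) without control replicate 1, and at 0.48 (SE 0.64) with it.

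Il7r encodes the alpha chain of the receptor for IL-7, a survival factor of naive and memory T cells. Knockout replicates 1 to 3 had 184, 161 and 161 TPM, and knockout replicate 4 had 80.9 TPM, the lowest of the 8 libraries. The controls had 16.8, 132, 117, 179 and 117 TPM. Thus 3 of 4 knockout libraries were above the control median of 124 TPM over replicates 2 to 5, and the fourth was below every one of these controls. Limma estimated the log2 difference at 0.068 (SE 0.26, adjusted p 0.95) without control replicate 1. It was 0.33 when knockout replicate 4 was left out as well, and 0.65 (SE 0.65) with all 9 libraries.

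Il21r encodes the receptor for IL-21, a cytokine of helper T cells. Its levels were 173, 162.5, 160.25 and 178 TPM among knockouts, compared with 14.0, 139.7, 184, 144 and 218 TPM among controls. The knockout libraries lay close together, within the wider range of control replicates 2 to 5: the SD was 8.47 TPM in knockouts and 36.9 TPM in these controls (n = 4 each). Without control replicate 1 the estimate in limma was -0.0015 (SE 0.14, adjusted p 0.997), and the 95% interval corresponds to 0.80 to 1.25 times the control level. With all 9 libraries it was 0.70 (SE 0.71).

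Il9r, the receptor for IL-9, was the least abundant and the most variable of the 9 genes. The knockout libraries had 4.41, 4.04, 1.79 and 3.90 TPM and the controls 0.22, 1.98, 3.09, 4.26 and 5.28 TPM. The lowest values after control replicate 1 were in knockout replicate 3 and control replicate 2, 1 from each group. The coefficient of variation over 8 libraries was 33.8%, against 10.1% for Il2rg and a median of 20.0% over all tested genes. Its log2 difference was -0.028 (SE 0.29, adjusted p 0.98 in limma) without control replicate 1, and 0.35 (SE 0.47) with it.

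The kinases had overlapping levels. Jak1, which binds the partner chains, had 134, 143, 121 and 98.7 TPM in knockouts and 7.19, 57.9, 128, 121 and 139.8 TPM in controls. Control replicate 2 was the lowest of the 8 libraries, and the other values of both groups overlapped. Jak3, which binds the common gamma chain, had 147, 143, 98.2 and 139 TPM in knockouts and 4.53, 103, 159, 141 and 150.03 TPM in controls. Its low values were knockout replicate 3 and control replicate 2, again 1 in each group. In the fit without control replicate 1 limma gave log2 differences of 0.22 (SE 0.26, adjusted p 0.81) for Jak1 and -0.066 (SE 0.17, adjusted p 0.93) for Jak3. With all 9 libraries they were 0.96 (SE 0.77) and 0.86 (SE 0.91). Without control replicate 2 as well, the difference of Jak1 was -0.069.

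Exact two-sided permutation tests of each gene's mean log2(TPM + 1) called none of the 9 either. Their p-values ran from 0.349 for Jak1 to 0.937 for Il2rg with all 9 libraries, where the smallest possible value is 0.0159. Without control replicate 1 they ran from 0.257 for Il2rg to 1.00 for Il21r, where the smallest possible value is 0.0286. These results do not show that the genes are equal between the groups. Without control replicate 1 the 95% intervals reached as low as 0.62 times the control level, for Il9r, and as high as 1.76 times, for Jak1, on the log2(TPM + 1) scale. With all 9 libraries they reached from 0.46 times, for Jak3, to 7.26 times, for Il2rb.

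Ratios between genes within a library, which depend little on how the library is scaled, gave the balance of the receptor transcripts. They do not give the make-up of the receptors, as no protein values were used. The log2 ratio of Il2rb to Il2rg was -1.97 ± 0.27 in knockouts and -2.16 ± 0.45 in control replicates 2 to 5 (SD, n = 4 each). That of Il2ra to Il2rb was -4.63 ± 0.037 and -4.66 ± 0.36, so the transcript of the alpha chain was well below that of the beta chain in every library. In knockouts this ratio stayed between -4.68 and -4.59, while Il2ra and Il2rb each varied between the libraries. The ratio of Il15ra to Il2rb was -3.47 ± 0.14 and -3.28 ± 0.22, and that of Il7r to Il2rb was -0.79 ± 0.38 and -0.77 ± 0.51. The ratio of Jak3 to Jak1 was 0.081 ± 0.33 and 0.36 ± 0.31. All of these ratios overlapped between the groups.

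**Figure D3:**
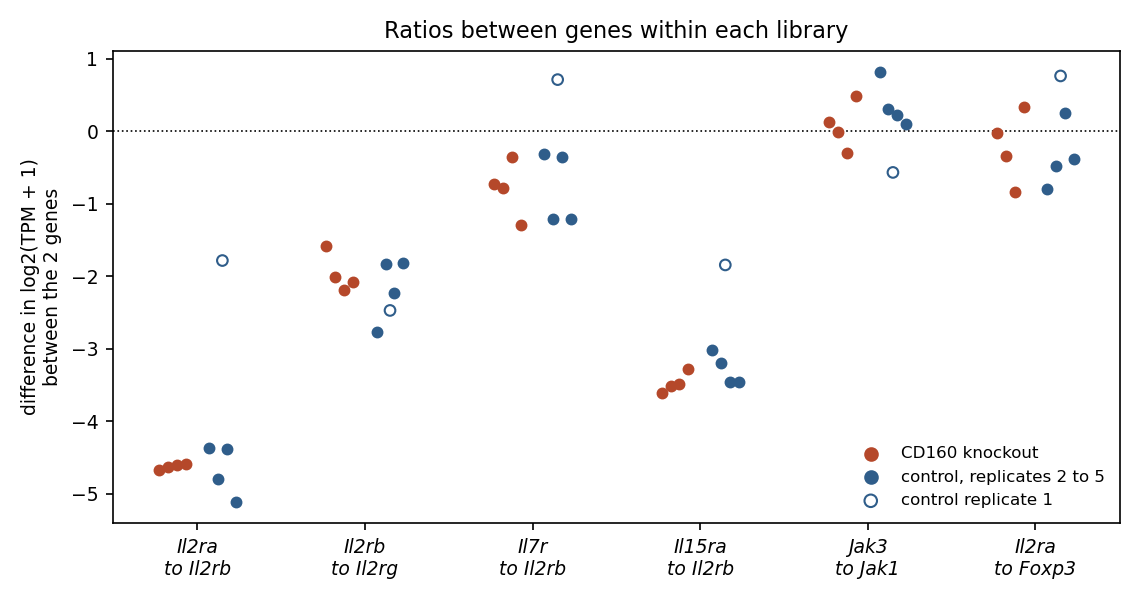
Difference in log2(TPM + 1) between the 2 genes named under the axis, for each library, so that 0 means equal levels. Knockouts and control replicates 2 to 5 overlap for every pair, and control replicate 1 (open circles) lies at -1.78 for Il2ra to Il2rb, where the other libraries lie between -5.11 and -4.37.

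Il2rg transcripts also exceeded those of the chains that share its protein. This sum was chosen after the values were seen and adds Il4ra, the alpha chain of the IL-4 receptor, to Il2rb, Il7r, Il9r and Il21r. The 5 partner chains together had 717, 667, 599 and 533 TPM in the knockout libraries and 44.7, 483, 611, 602 and 647 TPM in the controls. Il2rg was above this sum in all 9 libraries, by 1.27 to 1.67 times in knockouts and 1.33 to 2.32 times in controls. The highest ratio, 2.32, was in control replicate 2.

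In control replicate 1 the receptor and kinase transcripts and the T cell markers were all below the other controls, by widely different amounts. On the log2(TPM + 1) scale, control replicate 1 minus the mean of the other controls was -1.52 for Il2ra, -1.88 for Il9r and between -2.92 and -4.64 for the other 7 genes, a scale that understates the change of the 2 least abundant genes. The median over all tested genes was -2.06, and over the 6668 genes with a mean of 10 TPM or more it was -2.74. Among T cell markers, Cd4 was at -0.44, Cd3d at -0.48, Cd3g at -1.32 and Cd3e at -3.62, and the mean of the 3 Cd3 genes was -1.81. Of the 9 genes, 4 were further below the other controls than Cd3e. In TPM, Jak3 in this library was at 3.28% of the mean of the other controls, Il2rb at 4.23% and Il2ra at 26.4%.

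**Figure D4:**
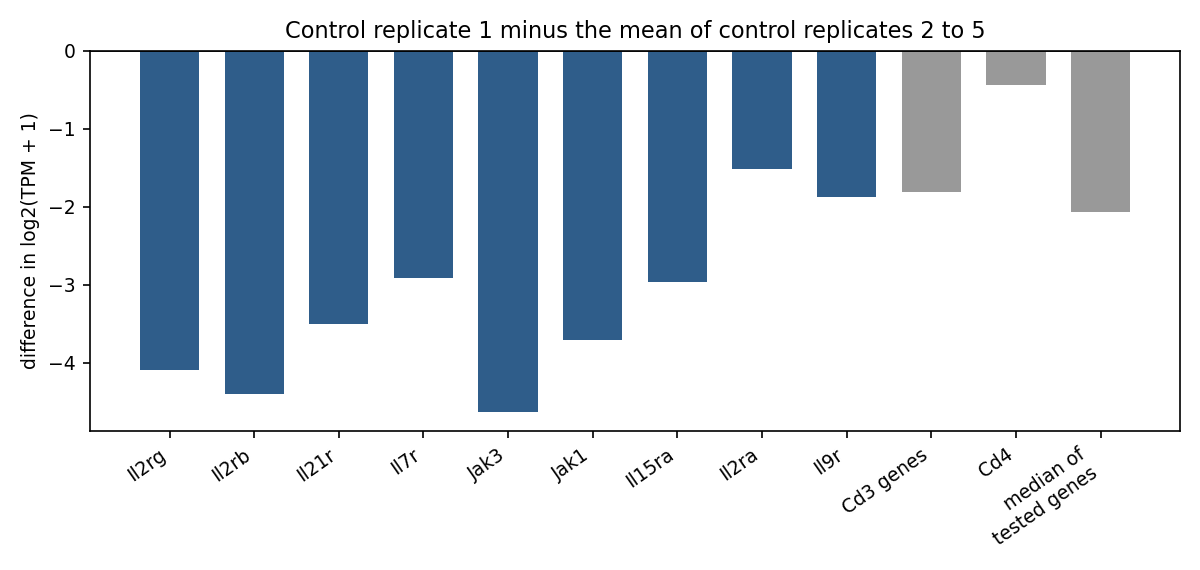
Difference in log2(TPM + 1) between control replicate 1 and the mean of control replicates 2 to 5 for the 9 genes (blue bars), and for the mean of Cd3d, Cd3e and Cd3g, for Cd4 and for the median of all tested genes (grey bars). All bars are below 0, from -0.44 for Cd4 to -4.40 for Il2rb and -4.64 for Jak3.

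Macrophage markers were on average higher in knockouts, with sums that overlapped between the groups. The 10 macrophage markers, all measured, summed to 8509 to 15240 TPM in knockouts and 2353 to 9424 TPM in control replicates 2 to 5, and to 1004 TPM in control replicate 1. Dendritic cell markers summed to 7285 to 12397 TPM in knockouts and 2373 to 8595 TPM in the same controls. Nearly all of this was H2-Ab1, a class II antigen-presenting gene, which alone had 2347 to 12342 TPM over the 8 libraries, so the sum is not a measure of dendritic cells. NK cell markers summed to 682 to 1245 and 232 to 922 TPM, and to 1055 TPM in control replicate 1. Most of the NK sum was Tyrobp, a gene of myeloid cells too, which alone had 226 to 1239 TPM over the 8 libraries. Neutrophil markers were highest in control replicate 1, with a sum of 325 TPM. They summed to 24.2 to 150 TPM in knockouts and 20.3 to 57.9 TPM in control replicates 2 to 5. The 7 innate lymphoid markers summed to 828 to 1317 and 1016 to 1135 TPM, of which Id2 alone had 735 to 1029 TPM over the 8 libraries. The mean log2(TPM + 1) over each list gives every marker equal weight and was compared without control replicate 1. The differences, knockout minus control, were 1.39 for macrophage, 0.45 for dendritic cell, -0.28 for NK cell and -0.22 for innate lymphoid markers. In the same order, the exact two-sided permutation p was 0.0571, 0.229, 0.486 and 0.60. Knockout replicates 3 and 4 had the highest macrophage sums and the lowest Il2rb values of their group, and knockout replicate 4 also had the highest Il21r value of the 4, at 178 TPM. Control replicate 2 had the highest macrophage sum of control replicates 2 to 5, with the lowest Il2rb, Jak1 and Jak3 values of these controls but their highest Il2rg value. Among knockouts, Cd4 (317 TPM) and Cd3e (246 TPM) were lowest in replicate 1, and Cd3d (579 TPM) and Cd3g (1066 TPM) in replicate 4. As TPM are shares of a total, a larger share of RNA from other cells lowers the values of T cell genes. Whether this bears on the values above was not tested, and fewer T cells and less RNA per T cell cannot be told apart. A limma fit of the same 8 libraries that included the macrophage markers called 0 of 9 genes, with log2 differences from -0.18 for Il2rg to 0.64 for Il2rb (SE 0.12, adjusted p 0.28) and 0.82 for Jak1 (SE 0.26, adjusted p 0.35). In it 2 of 9 genes had an unadjusted limma p under 0.05, Il2rb (0.00052) and Jak1 (0.013), as did 1226 of 11457 tested genes. The same fit of all 9 libraries gave -0.65 for Il2rb and -0.33 for Jak1, so the direction turned with control replicate 1.

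Without control replicate 1, the T cell receptor complex genes used for scaling were lower in knockouts. Values relative to them were therefore shifted upward for all genes in that fit. The mean log2(TPM + 1) of Cd3d, Cd3e and Cd3g was 9.22 ± 0.10 in knockouts and 9.55 ± 0.11 in control replicates 2 to 5 (SD, n = 4 each), a difference of -0.34 with no overlap (exact two-sided permutation p = 0.0286, the smallest possible). Among single tested genes, the same groups did not overlap for 7.02%. The full list of 7 T cell markers, which includes the Cd3 genes and Cd4, differed less. Its mean log2(TPM + 1) had a difference of -0.24 (exact two-sided permutation p = 0.143). When values were taken relative to the 3 Cd3 genes, all 9 log2 differences were positive without control replicate 1. They ran from 0.23 for Il2rg to 0.55 for Jak1, while the median of all tested genes was 0.32. Il2ra, Il2rb, Il21r and Jak1 had an unadjusted p under 0.05 in that fit, 4 of 9 genes, as did 46.2% of all tested genes. None of the 9 passed adjustment, with adjusted p values in limma from 0.070 to 0.37, while 25.5% of all tested genes did. With all 9 libraries the mean of the 3 Cd3 genes was 9.22 in knockouts and 9.19 in controls, so the shift was slightly downward. The relative differences were then 0.32 for Il9r to 0.94 for Il2rb, beside a median of 0.43 for all tested genes, which was 0.46 without this scaling.

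The other genes of the pathway were counted in 7 lists of 46 genes, of which 44 were tested in each fit. With all 9 libraries 0 of 44 were called, and without control replicate 1 the single call was Ets1, lower in knockouts. At an unadjusted p under 0.05 there were 2 higher and 0 lower genes of 44 with all 9 libraries, where 6.39% of all tested genes passed, and 8 higher and 4 lower without control replicate 1, where 12.8% did. The lists were chosen with earlier results of these data known, so these counts are no test of the pathway. Of the 6 ligands, 4 were tested and 0 were called in either fit. Il9 was listed at 0 in every library, and Il7 did not reach the filter. Il4, which T cells make, stood at 2.94, 4.76, 2.12 and 1.06 TPM in knockouts and at 0.86, 5.68, 4.96, 18.4 and 13.0 TPM in controls. Every knockout library was below control replicates 2 to 5, but not below control replicate 1 (log2 difference -1.55 without it, adjusted p 0.19 in limma, and -1.06 with it). Il15, a product of myeloid and stromal cells, had a difference of 0.55 with an adjusted p of 0.58.

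Partner chains outside the 9 genes had positive differences in 3 of 3 cases and 0 called. Il4ra stood at 50.9, 61.2, 71.1 and 71.3 TPM in knockouts and at 3.74, 46.8, 36.1, 47.0 and 35.9 TPM in controls, so all knockout libraries were above all controls. Its log2 difference was 0.61 without control replicate 1, with an adjusted p of 0.15, and 1.24 with it. Il13ra1, which joins Il4ra in a receptor of non-lymphoid cells, had 1.33 with an adjusted p of 0.18, and 1.76 with all 9 libraries. With the macrophage markers in the fit, the differences without control replicate 1 were 0.22 for Il4ra (adjusted p 0.50) and 0.48 for Il13ra1 (adjusted p 0.60).

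Signalling genes were likewise not called. Among 7 other Janus kinases and STAT factors, 7 of 7 differences were positive without control replicate 1, with a median of 0.19 beside -0.014 for all tested genes. Stat5a, which carries signals of IL-2 and IL-7, stood at 29.0, 25.2, 22.8 and 24.6 TPM in knockouts and at 1.72, 15.6, 22.4, 21.4 and 19.9 TPM in controls, with a difference of 0.35 and an adjusted p of 0.33 in limma without control replicate 1. Of 7 feedback inhibitors and phosphatases, 4 had positive and 3 negative differences. Among them Socs3, an inhibitor of cytokine receptors that myeloid cells also express, had 0.91 (adjusted p 0.15) and the phosphatase Ptpn6 had 0.22 (adjusted p 0.33). Of 5 adaptor and PI3 kinase genes, 3 were positive, with the adaptors Gab2 at 0.82 (adjusted p 0.19) and Grb2 at 0.25 (adjusted p 0.40). Of 8 survival and growth targets, 4 were positive and 4 negative, with a median of -0.021. The kinase Pim2 had -0.40 (adjusted p 0.36) and the cytokine Osm had 0.95 (adjusted p 0.42). Osm stood at 60.2 TPM in knockout replicate 1 and at 11.3 to 19.0 TPM in the other knockouts, and its difference was 0.49 without that library. With the replicate block, in which knockout replicate 1 and control replicate 5 have no weight, the difference of Osm was 0.33. With the macrophage markers in the fit, Socs3 had 0.46, Gab2 0.31 and Pim2 -0.12, while Stat5a had 0.60 and Osm 1.33. In all 9 libraries and with no covariate, Stat5a had 0.93, Socs3 1.94, Gab2 1.14 and Osm 1.45, and 0 were called.

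Of 10 transcription factors that act on the receptor genes, 1 was called. Ets1, an ETS family factor of T cells, was lower in knockouts: 163, 193, 172 and 116 TPM against 405, 483, 501 and 512 TPM in control replicates 2 to 5. Its log2 difference was -1.57 with an adjusted p of 0.017 in limma without control replicate 1, which itself stood at 11.4 TPM. With that library the difference was -0.52 and not called (adjusted p 0.77). The call was also lost without control replicate 3, 4 or 5 in addition, with adjusted p values of 0.088, 0.067 and 0.12, and with the macrophage covariate (0.14), no filter (0.082) or the replicate block (0.31), while the difference stayed between -1.67 and -1.43 over the 8 further omissions. Gfi1, a repressor of Il7r, had -0.61 with an adjusted p of 0.33, and -0.11 with the macrophage covariate. The other 8, which include Foxo1 and Klf2, were not called.

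For 3 receptor genes the transcripts most like them over the 8 libraries without control replicate 1 were looked up by Pearson correlation of log2(TPM + 1) among 11448 genes. With 8 libraries and so many genes, high values are easily reached, and they are given as a description. For Il2ra these were Il17ra, a receptor chain for IL-17 (r = 0.98), and H2-K1, a class I antigen-presenting molecule (r = 0.97). For Il7r they were Tbc1d2 (r = 0.97) and the transcription factor gene Klf13 (r = 0.94). For Il2rb they were Syncrip, an RNA-binding protein gene (r = 0.98), and the cyclin gene Ccne1 (r = 0.98). The 8 libraries share the 2 groups and the variation in other cells described above.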

How the data were processed

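RNA from sorted colonic CD4+ T cells was measured in 9 libraries, 4 of CD160 knockout and 5 of control cells, grouped and numbered by their titles. The libraries were full-length cDNA of polyadenylated RNA, per the labels' protocols. The deposited values are TPM made by the authors. Per the submitters' processing notes, the tools were RSEM 1.2.31, Bowtie2 2.2.9 and Trimmomatic 0.32 and the build was GRCm38, with settings not given in the sources used here. TPM keeps no depth, so its precision is unknown.

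The fit was limma 3.58.1 in R 4.3.3 (eBayes with trend) on log2(TPM + 1), for genes reaching 1 TPM in 4 or more libraries, with Benjamini-Hochberg adjustment over all genes tested and a threshold of 0.05. It was run on 9 libraries and on the 8 without control replicate 1, and was tested on simulated data. Log2 differences understate changes of genes at low values. Alternatives were pseudocounts of 0.1 and 5, no filter and one of 5 TPM, median-of-ratios scaling, values relative to Cd3 genes, the replicate number as a block, robust estimation, a macrophage marker covariate and leaving out each library. Exact permutation tests ran per gene. The 9 genes, the lists and the rule for named genes were chosen with earlier results of these data known. Named genes were the 9, Cd160, called pathway genes, and the 2 of each pathway list with the smallest p without control replicate 1. Il4ra in the sum of partner chains, Foxo1, Klf2, Il7 and Il9 were named after their values were seen. A gene that this rule names is not reported here. A planned look at protein sequences was not made. Coordinates are from GENCODE M21, and figures were drawn with matplotlib 3.10.9.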

Additional observations from a re-analysis of the deposited data

Results flagged for a closer look

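Control replicate 1 stood at 59.3 TPM for Il2rg, with the nearest control at 954 TPM, and was set apart from the other 4 controls by a gap of 0.84 of the group's range. Knockout replicate 3 stood at 98.2 TPM for Jak3, with the nearest knockout at 139 TPM and a gap of 0.84 of the range. Among 27 groups of values looked at in this way, chance flags about 1 in 20.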

How the results depend on the processing

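No alternative called any of the 9 genes, in either set of libraries. Pseudocounts, filters and robust estimation kept the sign of every difference; Il9r did not reach the filter of 5 TPM and has no value there. With all 9 libraries, the macrophage covariate, which moved the median of all genes from 0.46 to -0.44, reversed all signs: -1.13 for Il2rg, -0.65 for Il2rb, -0.13 for Il2ra, -0.61 for Il15ra, -0.56 for Il7r, -0.68 for Il21r, -0.18 for Il9r, -0.33 for Jak1 and -0.97 for Jak3. Median-of-ratios scaling, which moved the median of all genes from 0.46 to 0.018, gave -0.093 for Il2ra and -0.028 for Il15ra. Without control replicate 1, the signs that changed were 0.26 (Il15ra), 0.29 (Il21r), 0.49 (Il9r) and 0.31 (Jak3) with the covariate, 0.0018 for Il21r with median-of-ratios scaling, and 0.23 (Il2rg), 0.23 (Il15ra), 0.34 (Il21r), 0.31 (Il9r) and 0.27 (Jak3) relative to the Cd3 genes. Il15 changed to -0.45 with the covariate. Relative to the Cd3 genes, where the median of all genes was 0.32, Il4ra, Il13ra1, Stat5a, Socs3, Ptpn6, Grb2, Gab2 and Cd160 passed the threshold without control replicate 1, as did 25.5% of all tested genes. The causes were not tested.

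Same-numbered libraries did not deviate together: the correlations of their deviations over genes were -0.22, -0.16 and 0.001 for numbers 2, 3 and 4, so the numbers are not taken as pairs. With the replicate block, 0 genes were called in either set, and without control replicate 1 the sign changed to 0.11 for Il21r, -0.042 for Il2ra, -0.13 for Il7r and 0.035 for Il9r.

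Leaving out 1 library moved the differences, with all 9 libraries, over -0.11 to 0.94 for Il2rg, -0.11 to 0.72 for Il15ra, -0.0015 to 0.97 for Il21r, -0.028 to 0.57 for Il9r and -0.066 to 1.15 for Jak3. Starting without control replicate 1, the ranges were -0.079 to 0.18 for Il2rb, -0.18 to 0.0032 for Il15ra, -0.062 to 0.33 for Il7r, -0.091 to 0.12 for Il21r, -0.22 to 0.19 for Il9r, -0.069 to 0.35 for Jak1 and -0.20 to 0.068 for Jak3. Of all genes, 2 were called with 9 libraries and 3 without control replicate 1. With 9 libraries the count was 1 at a pseudocount of 5, 0 with no filter and with the 5 TPM filter, and 1 with the covariate. Without control replicate 1 it was 5 at a pseudocount of 0.1, 1 with no filter and 1 with the covariate. Omitting single libraries gave 0 to 3 and 0 to 15. Depth is unknown, so no limit of detection is given for Il9r or Il2ra.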
